A study of Mus musculus with 12 samples.

Results

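Matricellular proteins are secreted into the extracellular matrix, where they bind collagens, growth factors and cell surface receptors and tune how cells attach, signal and lay down fibres, without being main load-bearing fibres themselves. In heart valves they are known from leaflet development, collagen organisation and the response of interstitial cells to load and injury. The RNA of 7 of them was followed in aortic valve leaflets of the mouse. Sparc (osteonectin) and Sparcl1 (hevin) are related collagen-binding glycoproteins. Thbs1 and Thbs2 (thrombospondins) bind the receptors CD47 and CD36, and Thbs1 also activates latent TGF-beta. Postn (periostin) takes part in collagen cross-linking in the valve. Tnc (tenascin-C) is typical of growing or injured tissue, and Tnxb (tenascin-X) associates with collagen fibrils in mature connective tissue. The genes were chosen by name, and all 7 were found among the 41709 genes of the deposited table.

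Leaflets came from C57BL/6J;129SvEv mice aged 2 months, in 4 genotype groups of 3 libraries each, and whole leaflets were cut from fixed, stained sections by laser microdissection. The groups carry the codes CTRL, ECKO, SMKO and DKO, and the labels name neither the gene nor the Cre driver. The study is known to concern fibulin-4 (Efemp2), a glycoprotein needed to build elastic fibres, whose gene was removed from endothelial cells in ECKO, from smooth muscle cells in SMKO and from both in DKO, with CTRL as the control. The 3 libraries of a group are labelled biological triplicates, without naming animals. Levels are in CPM, the counts of a gene scaled to a library of fixed size, with TMM scaling between libraries, and levels of different genes are compared only in TPM (transcripts scaled in the same way within a library), which account for transcript length. Fold changes and adjusted p-values are from edgeR's quasi-likelihood F test with Benjamini-Hochberg adjustment over the 6296 genes tested, and a gene is called at an adjusted p under 0.05.

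Library totals ran from 74827 counts in SMKO 3 to 615665 in ECKO 2, with a median of 321312. Mitochondrially encoded genes took 28.5% of counts in SMKO 3, 26.7% in CTRL 3 and 24.1% in SMKO 2, and 10.5% to 21.0% elsewhere. Efemp2, taken as a check on the labels, had 9 to 58 counts (35.5 to 84.5 CPM) in the CTRL libraries. In the ECKO libraries it had 3 to 15 counts (15.4 to 21.9 CPM). It had 4, 0 and 0 counts in SMKO 1, 2 and 3 and was at 0 in every DKO library. Efemp2 therefore cannot tell SMKO 2 from a DKO library. SMKO 2 stood apart from its group in several genes described here, so results that it moves by over 1.5 times are given with and without that library. All 10 endothelial and all 9 interstitial and fibroblast markers had counts. The interstitial list summed to between 17998 and 41703 CPM and the smooth muscle list to between 138 and 341 CPM. Such sums take no account of transcript length, so they do not measure shares of cell types, and lists are compared only between libraries. Of 5 lymphocyte markers, Cd3e and Cd3d were at 0 in all libraries.

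Promoter sequences were at hand for 5 of the 7 genes, in 7 windows (RefSeq, GRCm38.p6). The 250 bases before a transcript start are shown for the 3 genes with the widest spread between groups, Sparc, Tnxb and Tnc, 5′ to 3′ on the strand of the gene. They lie at chr11:55420081-55420330 (minus strand) for Sparc, chr17:34670285-34670534 (plus strand) for Tnxb, and chr4:64046937-64047186 (minus strand) for the more downstream of the Tnc starts. Capitals mark a match, on either strand, to a motif named below the sequences.
Sparc: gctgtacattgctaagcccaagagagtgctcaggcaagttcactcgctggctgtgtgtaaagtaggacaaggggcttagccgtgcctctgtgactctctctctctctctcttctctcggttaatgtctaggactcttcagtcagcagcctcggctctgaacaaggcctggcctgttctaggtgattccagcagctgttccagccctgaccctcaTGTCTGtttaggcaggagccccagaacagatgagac
Tnxb: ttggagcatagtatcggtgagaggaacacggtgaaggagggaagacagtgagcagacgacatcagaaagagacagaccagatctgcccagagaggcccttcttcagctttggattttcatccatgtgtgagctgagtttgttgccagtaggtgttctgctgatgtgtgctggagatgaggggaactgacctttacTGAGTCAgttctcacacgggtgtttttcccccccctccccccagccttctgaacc
Tnc: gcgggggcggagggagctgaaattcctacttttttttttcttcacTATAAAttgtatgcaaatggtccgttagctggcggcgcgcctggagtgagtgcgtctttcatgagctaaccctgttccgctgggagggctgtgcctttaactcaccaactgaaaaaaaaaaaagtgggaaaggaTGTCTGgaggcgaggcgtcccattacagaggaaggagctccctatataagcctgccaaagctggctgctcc

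Of the motifs searched, all on both strands, TATAAA is a fixed spelling of the TATA box, and other spellings were not searched. The sites of TEAD factors were searched as GGAATG. AP-1 sites were searched as TGANTCA, where N is any base. SMAD sites were searched as CAGACA, and SRF sites as the CArG box, which is given by name. In the Sparc window CAGACA matched the opposite strand 36 to 31 bases before the start. The Tnxb window held TGANTCA 55 to 49 bases before the start, and because that motif reads alike on both strands this is a single position. The Tnc window held TATAAA 205 to 200 bases before the start and CAGACA, on the opposite strand, 71 to 66 bases before it. Nearer the start it also held tatataag, which the search for TATAAA does not match. Among 32851 mouse windows of this length, 17.1% held the SMAD motif, 12.4% TATAAA, 12.6% the TEAD motif, 6.75% the AP-1 motif and 1.47% the CArG box. These matches describe letters in a window and were not linked to the values below.

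Per transcript length, the 7 genes spanned from some of the most to some of the least abundant transcripts of the leaflet. Sparc, Postn and Thbs1 stood at ranks 25, 50 and 92 of all genes by mean TPM over the 12 libraries. Their TPM ran from 1392 to 7019 for Sparc, from 959 to 2845 for Postn and from 345 to 1520 for Thbs1. Sparcl1 (5.40 to 355 TPM, rank 957) and Thbs2 (43.9 to 129 TPM, rank 975) followed, and their ranges overlapped. The tenascins were scarce, with Tnc at 0 to 20.6 TPM (rank 9131) and Tnxb at 0.392 to 10.6 TPM (rank 9153). In CTRL, Sparc (1627 ± 245 TPM, SD, n = 3) and Postn (1681 ± 467 TPM) did not differ beyond their spread, whereas in DKO Sparc stood at 6352 ± 606 TPM and Postn at 2181 ± 730 TPM. By mean TPM Sparc ranked 53 in CTRL, 37 in ECKO, 26 in SMKO, then 17 in DKO. The SMKO rank was set by SMKO 2. Within single libraries Sparc ranked 44, 18 and 44 in SMKO 1, 2 and 3, and 48, 64 and 48 in CTRL 1, 2 and 3.

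All 7 genes passed the filter on low counts, but not by the same margin. Sparc, Thbs1, Thbs2 and Postn stood above its cutoff of 31.1 CPM (before TMM scaling) in all 12 libraries and Sparcl1 in 10. Tnc passed through ECKO 2, SMKO 2, DKO 2 and DKO 3 alone, and Tnxb through CTRL 3, the 3 ECKO libraries, SMKO 1 and SMKO 3. For these 2 genes the libraries with high values were thus the ones that brought them into the test.

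No matricellular gene was called in any of the 10 tests of the edgeR model that holds all 12 libraries, with the filter on low counts and no replicate block. In DKO against CTRL this was 0 of 7, where 0.492% of all genes tested were called, and in DKO against ECKO 0 of 7, where 0.572% were. It was also 0 of 7 in DKO against SMKO, SMKO against CTRL, ECKO against CTRL and SMKO against ECKO, where 0.0% of genes were called in each, and in the test over the 4 groups (0.302%). Limma-voom called 0 of the 7 in each of these tests too. DESeq2 called none of those it gave an adjusted p, which left out Tnc and Tnxb in DKO against CTRL and over the 4 groups. At an unadjusted p under 0.05 the 7 genes gave 2 in DKO against CTRL (Sparc and Tnc, where 11.6% of all genes passed), 3 in DKO against ECKO (Sparc, Postn and Tnxb, 10.8%) and 1 in DKO against SMKO (Tnxb, 6.29%). The count was 2 in SMKO against CTRL (Sparc and Tnxb, 5.48%), 0 in ECKO against CTRL (4.34%) and in SMKO against ECKO (3.8%), and 2 over the 4 groups (Sparc and Tnxb, 8.99%). The median log2 fold change of the 7 genes was 0.13 in DKO against CTRL, beside 0.02 over all genes tested. It was 0.36 in SMKO and -0.06 in ECKO, each against CTRL, beside 0.00 for all genes in both. Without SMKO 2 the 7 differences of SMKO from CTRL ran from -1.17 (Thbs1) to 1.55 (Tnxb), and the middle one was 0.03 (Thbs2). The values of all 3 deletion groups are set against the same 3 CTRL libraries, so these comparisons are not independent of each other.

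**Figure D1:**
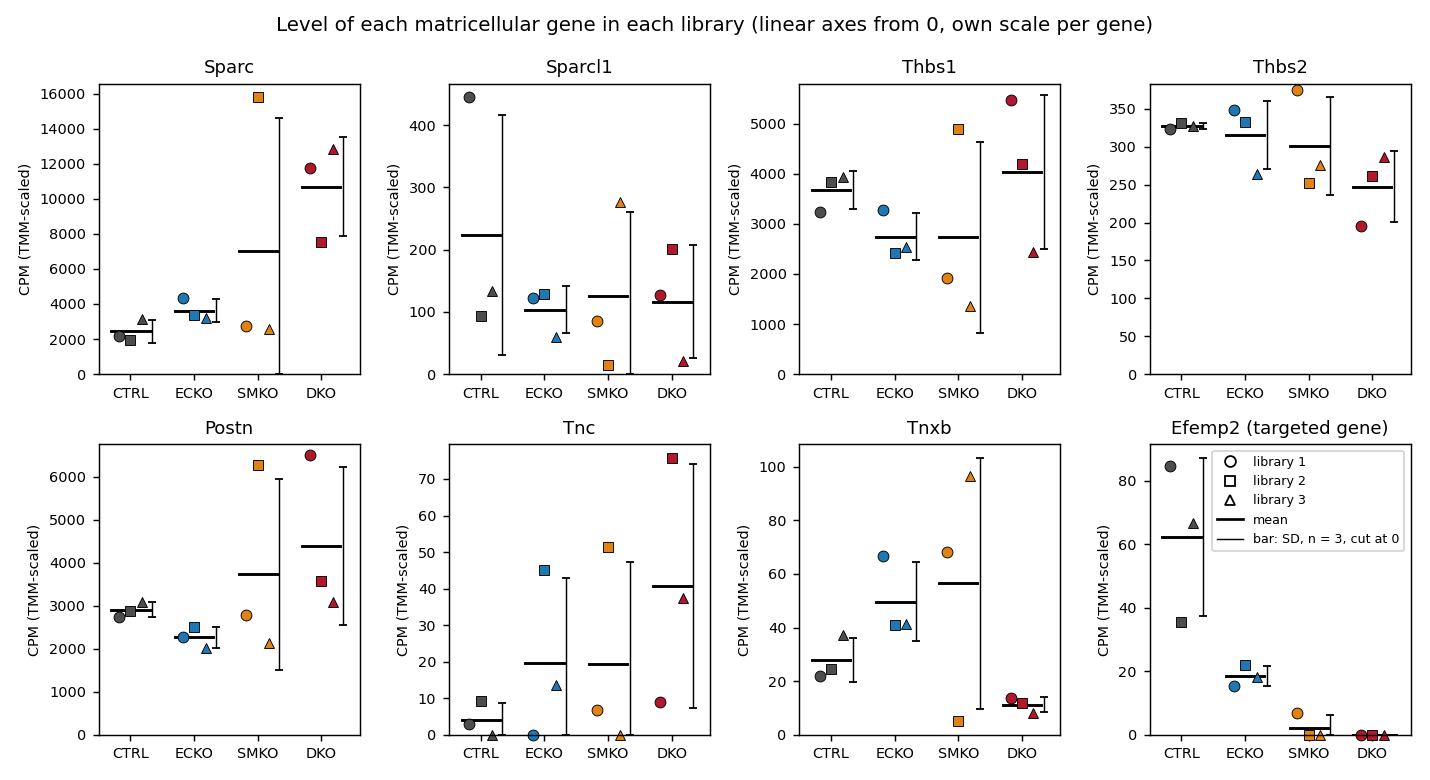
Level of each of the 7 genes and of Efemp2 in each library, in TMM-scaled CPM on linear axes that start at 0, with the group mean (line) and SD (bar, n = 3, cut at 0). Sparc lies highest in the 3 DKO libraries and in SMKO 2, and Tnxb lies lowest in the 3 DKO libraries and in SMKO 2.

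Sparc showed the widest separation of the abundant genes. It stood at 2198, 1943 and 3158 CPM in CTRL 1, 2 and 3, at 4357, 3349 and 3175 in ECKO, at 2731, 15775 and 2567 in SMKO, and at 11732, 7506 and 12855 in DKO. Every DKO library lay above every CTRL and ECKO library, and the ECKO libraries all lay above the CTRL ones, the closest pair being 3175 in ECKO 3 and 3158 in CTRL 3. SMKO was split, with libraries 1 and 3 inside the CTRL range and library 2 above all DKO libraries. As a share of all counts in a library, which no scaling between libraries touches, Sparc took 0.224% to 0.266% in CTRL, 0.365% to 0.410% in ECKO and 0.827% to 1.19% in DKO. In SMKO it took 0.303%, 1.17% and 0.249%, so that on this scale SMKO 2 fell inside the DKO range. The TMM factor of SMKO 2 was 0.739, the lowest of the 12, which raises its CPM relative to its share.

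In DKO against CTRL the fold change of Sparc was 4.40 (log2 2.14 ± 0.54 SE, 95% interval 1.02 to 3.26), and it missed the threshold (edgeR, adjusted p = 0.0742). The authors' deposited table gives a fold change of 4.41 for the same comparison, with a p of 3.52e-05. Whether the authors' p-values were adjusted is not given in the sources used here, and the unadjusted p of edgeR was 0.000631. Against ECKO the fold was 2.95 (log2 1.56 ± 0.53, adjusted p = 0.236). Against SMKO the difference was 0.60 ± 0.52 on the log2 scale, with an interval of -0.47 to 1.68 (adjusted p = 0.918). SMKO against CTRL gave 1.53 ± 0.53 (adjusted p = 0.874), ECKO against CTRL 0.58 ± 0.52 (0.998) and SMKO against ECKO 0.96 ± 0.52 (1.00). Over the 4 groups the adjusted p was 0.205.

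Leaving out SMKO 2 moved the comparisons with SMKO in size, and the others in their SE and adjusted p. Without it, Sparc was called in DKO against CTRL (log2 2.13 ± 0.29, adjusted p = 7.60e-06), in DKO against ECKO (1.55 ± 0.28, 0.000920) and in DKO against SMKO (2.02 ± 0.33, 0.000362), while SMKO against CTRL was 0.10 (0.966) and SMKO against ECKO turned to -0.47 ± 0.31 (1.00). In that fit 1.82%, 1.97% and 1.68% of all genes were called in the first 3 of these comparisons. Over the 4 groups Sparc was called there as well (adjusted p = 1.99e-06, with 1.97% of all genes called). Without SMKO 1 or without SMKO 3 Sparc was also called in DKO against CTRL (adjusted p = 0.0269 and 0.0316, where 1.18% and 0.583% of all genes were called). Without SMKO 1 it was called over the 4 groups too (0.0426, among 55 of 6009 genes). With the 6 libraries of CTRL and DKO alone, DKO against CTRL gave 2.11 ± 0.33 (adjusted p = 0.000847, with 1.72% of all genes called), and with those of ECKO and DKO alone, DKO against ECKO gave 1.52 ± 0.32 (0.00390, with 3.23% called). Without the filter on low counts the adjusted p was 3.00e-05 against CTRL and 0.00675 against ECKO, where 0.952% and 1.04% of all genes were called. Over the 4 groups it was 1.22e-05 without the filter, among 218 of 16588 genes called. The size of the DKO to CTRL difference ran from 1.99 to 2.35 over all settings tried, while the adjusted p ran from 7.60e-06 to 0.321.

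**Figure D2:**
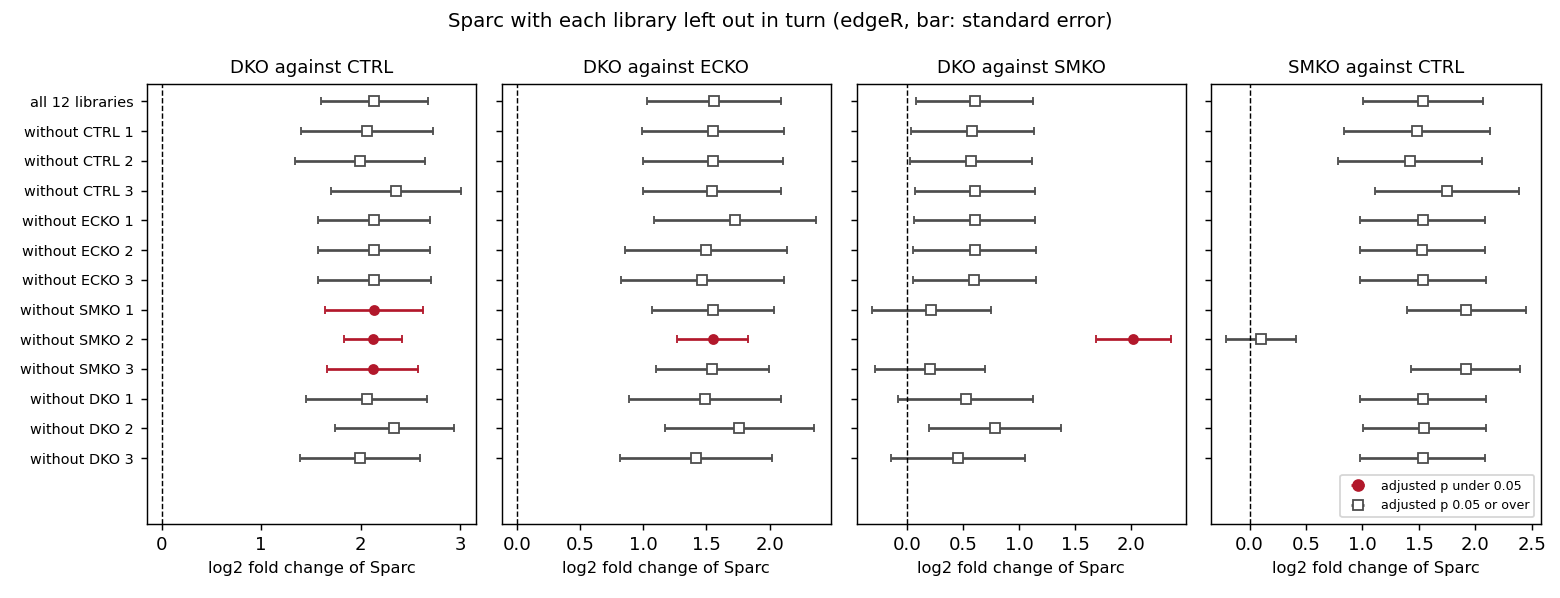
Log2 fold change of Sparc (horizontal axis, bar: SE) in 4 comparisons with all 12 libraries and with each library left out in turn, with filled circles where the adjusted p was under 0.05. Leaving out SMKO 2 moves DKO against SMKO from 0.60 to 2.02 and SMKO against CTRL from 1.53 to 0.10, and leaves DKO against CTRL at 2.13.

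SMKO 2 differed from its group in some marker lists as well. Macrophage markers (8 of 8 with counts) summed to 783 to 1092 CPM in CTRL, 723 to 1423 in ECKO, 755 to 1930 in DKO, and 1383, 3774 and 828 in SMKO 1, 2 and 3. The interstitial and fibroblast list summed to 28581 to 32838 CPM in CTRL, 24799 to 32089 in ECKO, 25784 to 36870 in DKO and 41703 in SMKO 2, where it was highest. In DKO both lists overlapped CTRL and ECKO and reached above them. Other lists did separate DKO from CTRL. Smooth muscle markers (6 of 6 with counts) summed to 290 to 341 CPM in DKO, 223 to 270 in CTRL and 285 to 308 in ECKO. They summed to 235, 180 and 138 CPM in SMKO 1, 2 and 3, so SMKO 2 lay inside its group there. Cardiac muscle markers (6 of 6) summed to 61.7 to 77.2 CPM in DKO and 26.2 to 59.4 in CTRL. Their ranges in ECKO (10.2 to 708) and SMKO (37.4 to 97.6) reached to both sides of DKO. Lymphocyte markers (3 of 5) summed to 21.9 to 41.5 in DKO and 41.7 to 66.9 in CTRL. Schwann and nerve markers (4 of 5) summed to 99.9 to 158 in DKO and 81.7 to 90.4 in CTRL. For these last 2 lists ECKO (32.1 to 56.3, then 68.9 to 118) and SMKO (35.9 to 66.4, then 69.0 to 116) overlapped both CTRL and DKO. Melanocyte markers (6 of 6 with counts) summed to 201 to 677 CPM in CTRL, 61.4 to 101 in ECKO, 193 to 1007 in SMKO, with SMKO 2 highest, and 384 to 903 in DKO. The interstitial list holds Col1a1 and Col3a1, and none of the 7 genes is on these lists. The part of these cells in the Sparc values was not tested, and in whole leaflets fewer cells of a type and less RNA per cell cannot be told apart.

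Set against collagen I within the same library, Sparc was again highest in DKO and in SMKO 2. There were 1.30, 1.98 and 1.51 Sparc counts per Col1a1 count in CTRL, 1.69, 1.76 and 1.84 in the ECKO libraries, 1.95, 4.14 and 1.56 in SMKO, then 2.64, 2.70 and 2.90 in DKO. The DKO libraries lay above all CTRL and ECKO libraries, so Sparc stood further above CTRL than Col1a1 did. Per Col3a1 count, Sparc stood at 1.06 to 1.63 in CTRL, 1.71 to 1.99 in ECKO and 2.59 to 5.81 in DKO, and at 1.62, 6.30 and 2.09 in SMKO.

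**Figure D3:**
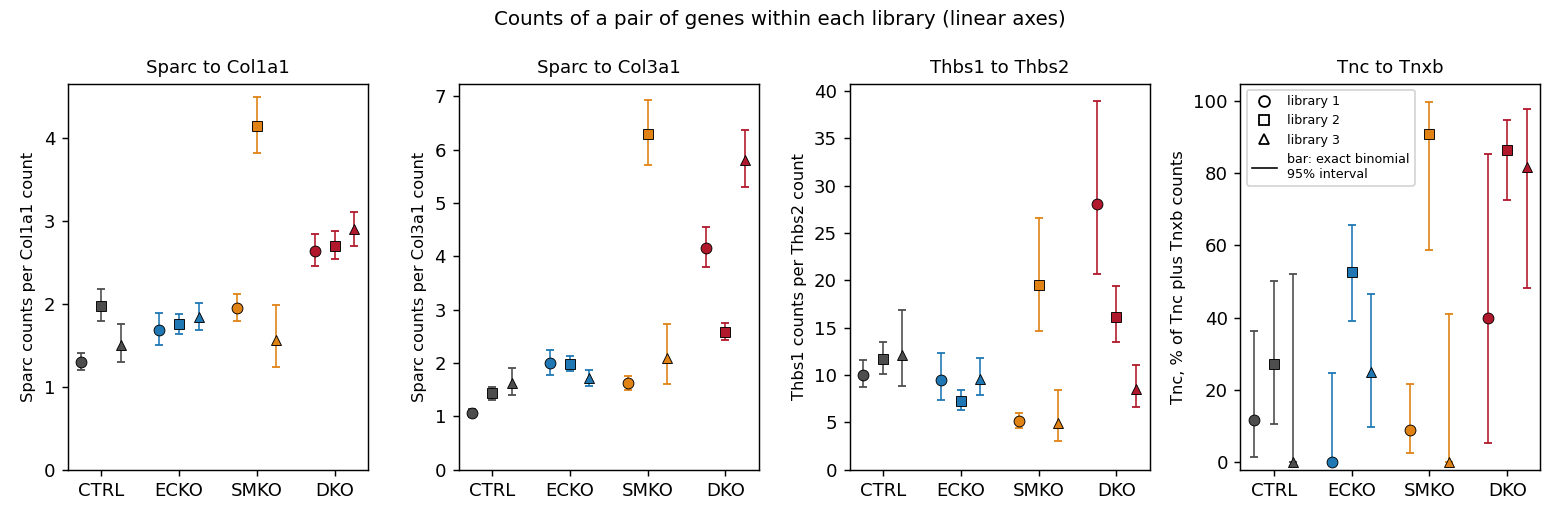
Counts of a pair of genes within each library, with exact binomial 95% intervals (bars): Sparc per Col1a1 and per Col3a1, Thbs1 per Thbs2, and Tnc as a percentage of Tnc plus Tnxb. DKO libraries lie at 2.64 to 2.90 Sparc counts per Col1a1 count and CTRL libraries at 1.30 to 1.98, and SMKO 2 lies with or beyond DKO in all 4 panels.

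Sparcl1, the closest relative of Sparc, did not follow it. Its levels were 444, 92.7 and 134 CPM in CTRL, 123, 128 and 59.7 in the ECKO libraries, 85.1, 15.4 and 276 in SMKO, then 127, 201 and 20.7 in DKO. All groups overlapped, and the order of their means was set by single libraries. DKO against CTRL gave a log2 difference of -0.93 ± 0.89 with a wide interval, -2.97 to 1.12 (adjusted p = 0.774), and without CTRL 1, the highest library, it was 0.21. ECKO against CTRL gave -1.19 ± 0.90 (adjusted p = 0.998) and SMKO against CTRL -1.32 ± 1.01 (0.941), which was -0.81 ± 1.06 without SMKO 2. Sparc counts per Sparcl1 count were 4.94 to 23.6 in CTRL, 26.1 to 53.2 in ECKO and 37.3 to 620.0 in DKO, and 32.1, 1024.0 and 9.30 in SMKO. The highest of these ratios, in SMKO 2 and DKO 3, rest on 3 and 5 Sparcl1 counts.

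The thrombospondins differed little between DKO and CTRL. Thbs1, the abundant paralogue, stood at 3245, 3847 and 3945 CPM in CTRL, 3282, 2427 and 2535 in the ECKO libraries, 1922, 4904 and 1366 in SMKO, then 5475, 4202 and 2430 in DKO. Within SMKO, libraries 1 and 3 were the lowest of all 12 and library 2 was above every CTRL library. DKO against CTRL gave 0.13 ± 0.40 on the log2 scale (interval -0.69 to 0.95, adjusted p = 0.950), and turned to -0.16 without DKO 1. ECKO gave -0.42 ± 0.40 against CTRL (adjusted p = 0.998). SMKO gave -0.42 ± 0.40 (0.941), which became -1.17 ± 0.32 without SMKO 2 (adjusted p = 0.432). DKO gave 0.56 ± 0.40 against each of them (adjusted p = 0.682 against ECKO and 0.896 against SMKO). Without SMKO 2, Thbs1 was called in DKO against SMKO (1.28 ± 0.32, adjusted p = 0.0279), where 1.68% of all genes were called.

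Thbs2, which takes part in collagen fibril assembly, varied little between groups, with means of 327 ± 3.61 CPM (SD, n = 3) in CTRL, 315 ± 44.8 in ECKO, 301 ± 64.9 in SMKO, then 247 ± 46.9 in DKO. Its DKO libraries, at 195, 261 and 286 CPM, all lay below the CTRL libraries, at 324, 331 and 327. The difference was -0.40 ± 0.25 on the log2 scale (interval -0.91 to 0.12, adjusted p = 0.578). ECKO and SMKO overlapped both CTRL and DKO. Their differences from CTRL were -0.06 ± 0.25 (adjusted p = 0.999) and -0.09 ± 0.26 (0.988), and the sign of each turned on leaving out 1 library (0.058 without ECKO 3 and 0.030 without SMKO 2). DKO against ECKO gave -0.34 ± 0.25 (0.689) and DKO against SMKO -0.31 ± 0.26 (0.918).

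The balance of the 2 thrombospondins within a library varied most in SMKO and DKO. Per Thbs2 count there were 10.0, 11.6 and 12.1 Thbs1 counts in CTRL, 9.43, 7.29 and 9.60 in the ECKO libraries, 5.14, 19.5 and 4.95 in SMKO, then 28.0, 16.1 and 8.49 in DKO. All ECKO libraries lay below all CTRL libraries, while SMKO and DKO spread to both sides of CTRL.

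Postn stood at 2747, 2892 and 3098 CPM in CTRL, 2284, 2498 and 2020 in the ECKO libraries, 2790, 6270 and 2139 in SMKO, then 6506, 3575 and 3098 in DKO. The DKO libraries all lay above ECKO, and DKO 3 lay level with CTRL 3. The fold in DKO against CTRL was 1.51 (log2 0.59 ± 0.39, interval -0.20 to 1.38, adjusted p = 0.594), and in DKO against ECKO 1.94 (0.95 ± 0.39, interval 0.16 to 1.75, adjusted p = 0.345). ECKO lay below CTRL without overlap, at -0.36 ± 0.39 (adjusted p = 0.998). SMKO against CTRL was 0.36 ± 0.39 (0.941) and became -0.25 without SMKO 2, and DKO against SMKO was 0.23 ± 0.39 (0.979). It became 0.83 ± 0.31 without SMKO 2 (adjusted p = 0.211), and turned to -0.17 without DKO 1 and to -0.06 without SMKO 3. Set against collagen I, Postn stood the other way from Sparc: there were 1.48 to 2.95 Postn counts per Col1a1 count in CTRL and 0.698 to 1.47 in DKO, below every CTRL library. ECKO, at 0.883 to 1.31, also lay below every CTRL library and inside the DKO range, and SMKO stood at 1.30 to 1.99.

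Tnxb had its lowest group level in DKO. Its levels were 21.9, 24.7 and 37.1 CPM in CTRL, 66.6, 40.9 and 41.3 in the ECKO libraries, 68.1, 5.14 and 96.6 in SMKO, then 13.6, 11.9 and 8.29 in DKO, from 15, 16 and 5, then 13, 28 and 18, then 40, 1 and 7, then 3, 6 and 2 counts. All DKO libraries lay below all CTRL and all ECKO libraries, and the ECKO libraries lay above the CTRL ones. SMKO 1 and 3 were the highest of all 12 libraries, and SMKO 2, with a single count, was the lowest. From the summed counts and totals of a group, without TMM scaling, the level was 27.7 CPM in CTRL (exact Poisson 95% interval 19.4 to 38.4), 49.1 in ECKO (37.4 to 63.3), 55.3 in SMKO (40.7 to 73.3) and 11.4 in DKO (5.70 to 20.4). These intervals cover counting error only.

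DKO against ECKO gave a log2 difference of -2.0 ± 0.56 for Tnxb (interval -3.15 to -0.85, adjusted p = 0.0962) and DKO against SMKO -2.19 ± 0.58 (-3.37 to -1.0, 0.30). The authors' deposited table lists a signed fold change of -3.95 with a p of 0.000609 against ECKO and -4.48 with 0.000286 against SMKO. The unadjusted p of edgeR was 0.00127 and 0.000744 in turn. DKO against CTRL gave -1.12 ± 0.61 (adjusted p = 0.498), ECKO against CTRL 0.88 ± 0.46 (0.998) and SMKO against CTRL 1.06 ± 0.48 (0.885), which was 1.55 ± 0.41 without SMKO 2 (adjusted p = 0.432). Over the 4 groups the adjusted p was 0.205. Without SMKO 2, Tnxb was called in DKO against ECKO (-2.01, adjusted p = 0.00915), in DKO against SMKO (-2.69, 0.00102) and over the 4 groups (0.00188). In these tests, in turn, 1.97%, 1.68% and 1.97% of all genes were called without that library. It was also called without the filter on low counts, in DKO against ECKO (0.0118) and in DKO against SMKO (0.0237, where 0.193% of all genes were called). With the 6 libraries of ECKO and DKO alone, and the filter in place, Tnxb was called too (-2.03 ± 0.48, 0.0112). By the cutoff of the full model, all ECKO libraries and no DKO library stood above the filter for Tnxb. In that smaller fit the gene was thus brought in by the group with high values, and the call is conditional on this selection. The calls of Tnxb without SMKO 2, here and below, are conditional in the same way, since DKO libraries did not bring the gene past the filter.

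The interaction DKO − ECKO − SMKO + CTRL asks whether the double deletion departs from the sum of the single ones on the log2 scale. Of the 7 genes 0 were called, where 0.0318% of all genes were, and 1 had an unadjusted p under 0.05, where 6.23% did. That gene was Tnxb, at -3.07 ± 0.74 (interval -4.58 to -1.55, unadjusted p = 0.000275, rank 3 of 6296 genes by p), with an adjusted p of 0.578. Without SMKO 2 it was -3.56 ± 0.61 and was called (adjusted p = 0.000936, with 0.813% of all genes called), as it was without the filter on low counts (-3.01, 0.00895, with 0.169% called), and the adjusted p ran from 0.000936 to 1.00 over the settings tried. Thbs1 gave 0.98 ± 0.57 (adjusted p = 0.848) and was called only without SMKO 2 (1.71 ± 0.42, 0.0339). For Sparc the interaction was 0.03 ± 0.74 (0.999), and it moved to 1.45 without SMKO 2, where it was not called, and to -0.37 without SMKO 1.

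Tnc had few counts, with 2, 6 and 0 counts in CTRL, 0, 31 and 6 in the ECKO libraries, 4, 10 and 0 in SMKO, then 2, 38 and 9 in DKO. On the CPM scale these were 2.91, 9.27 and 0 in CTRL, 0, 45.2 and 13.8 in the ECKO libraries, 6.81, 51.4 and 0 in SMKO, then 9.08, 75.7 and 37.3 in DKO. Each group had a library under 10 CPM, and all groups overlapped. CTRL 3 and SMKO 3, both at 0, are the shallowest libraries. Summed by group in the same way, the level was 6.16 CPM in CTRL (exact Poisson 95% interval 2.66 to 12.1), 30.8 in ECKO (21.7 to 42.4), 16.1 in SMKO (8.81 to 27.0) and 50.8 in DKO (37.6 to 67.2).

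DKO against CTRL gave a log2 difference of 3.01 ± 1.08 for Tnc (interval 0.66 to 5.36, adjusted p = 0.280, unadjusted p = 0.0162). The authors' deposited table lists a fold change of 7.91 with a p of 0.000900. In edgeR Tnc was called in this comparison without the filter on low counts (adjusted p = 0.00326), where 0.952% of all genes were called. ECKO against CTRL gave 2.15 ± 1.12 (0.998), SMKO against CTRL 1.72 ± 1.32 (0.941), DKO against ECKO 0.86 ± 0.85 (0.784) and DKO against SMKO 1.29 ± 1.02 (0.918). DKO against ECKO turned to -0.029 without DKO 2. Without SMKO 2, SMKO against CTRL moved to 0.14 and DKO against SMKO to 2.86 ± 1.17 (adjusted p = 0.342). Without DKO 2 or without any other single library the DKO to CTRL difference stayed between 2.08 and 4.05, with no call.

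Per transcript length, Tnxb stood above Tnc in each CTRL library and Tnc above Tnxb in each DKO library. The levels were 0.878, 2.64 and 0 TPM for Tnc and 3.80, 4.06 and 3.34 TPM for Tnxb in CTRL, and 1.68, 20.6 and 7.13 TPM for Tnc and 1.45, 1.87 and 0.914 TPM for Tnxb in DKO. Of the counts of both together, Tnc made up 11.8%, 27.3% and 0% in CTRL, 0%, 52.5% and 25% in the ECKO libraries, 9.09%, 90.9% and 0% in SMKO, then 40.0%, 86.4% and 81.8% in DKO. DKO lay above CTRL in every library, but the exact binomial 95% interval of DKO 1, which had 5 counts in all, ran from 5.27% to 85.3% and covered the CTRL values. In DKO 1 Tnxb had the greater number of counts, so that its order there depends on the scale and rests on those 5 counts. SMKO 2, with 10 Tnc counts and 1 Tnxb count, lay with DKO, and SMKO 1 and 3 with CTRL.

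Counted over the 7 genes, libraries of DKO and CTRL did not overlap for 1 gene in the higher direction (Sparc, where 9.7% of all genes tested did so) and for 2 in the lower one (Thbs2 and Tnxb, 8.13%). Against ECKO it was 2 higher (Sparc and Postn, 9.97%) and 1 lower (Tnxb, 8.88%). ECKO against CTRL gave 2 higher (Sparc and Tnxb, 5.73%) and 1 lower (Postn, 6.07%). In DKO against SMKO, SMKO against CTRL and SMKO against ECKO all 7 overlapped, where 9.55%, 10.5% and 9.28% of all genes did not.

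**Figure D4:**
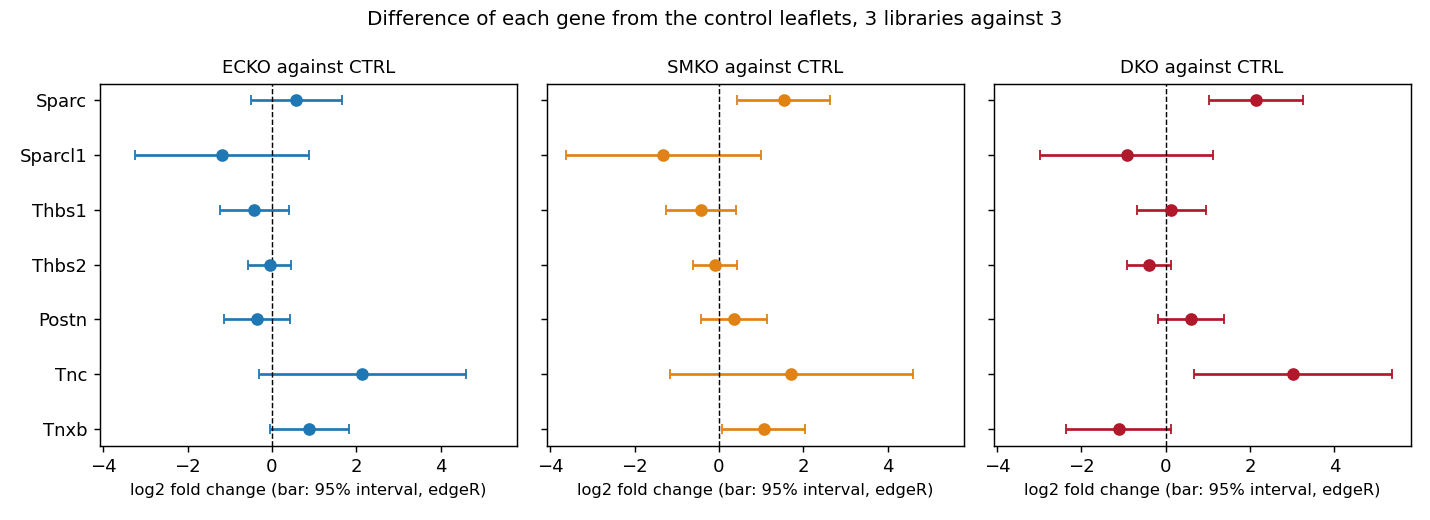
Log2 fold change of each gene (vertical axis) against CTRL in ECKO, SMKO and DKO, with the 95% interval from edgeR, 3 libraries against 3. In DKO the intervals of Sparc (1.02 to 3.26) and Tnc (0.66 to 5.36) lie above 0 before adjustment for multiple tests, and those of the other 5 genes include 0.

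The smooth muscle deletion, averaged over endothelial status with 6 libraries a side (SMKO and DKO against CTRL and ECKO), gave 0 calls among the 7 genes, where 0.206% of all genes were called, and 2 genes at an unadjusted p under 0.05, where 10.5% passed. Sparc differed by 1.55 ± 0.38 on the log2 scale (interval 0.77 to 2.32, adjusted p = 0.0769) and was called without SMKO 1 (1.74, 0.00689, with 1.55% of all genes called) or without SMKO 3 (1.73, 0.0151, with 0.407% called), whereas without SMKO 2 the difference was 0.83. Postn differed by 0.66 ± 0.27 (adjusted p = 0.362), and Tnxb by -0.47 ± 0.38 (0.749), and without SMKO 2 these were 0.34 ± 0.20 (0.725) and -0.23 ± 0.31 (0.923). The endothelial deletion averaged in the same way (ECKO and DKO against CTRL and SMKO) gave 0 calls, where 0.0% of all genes were called, and 1 gene at an unadjusted p under 0.05, where 4.99% passed. That gene was Tnc, at 1.72 ± 0.76 (adjusted p = 0.940). Sparc was called in this test only without SMKO 2 (1.30, adjusted p = 0.000473, with 0.42% of all genes called).

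Across the 12 libraries, the genes whose log2 CPM most resembled that of each matricellular gene were ranked by Pearson r, as a description in which group differences and SMKO 2 take part. For Sparc they were Myl6 (r = 0.974, Spearman rho = 0.930), Trpv4 (r = 0.967, rho = 0.944) and Srgn (r = 0.962, rho = 0.839). Myl6 encodes a myosin light chain, Trpv4 a calcium-permeable channel and Srgn the proteoglycan serglycin. Cd44, Actg1 and Lmo4 came first for Thbs1 (r = 0.930, 0.930 and 0.927), and Fkbp1a, Lamp1 and Tuba1c for Postn (r = 0.936, 0.907 and 0.906). Gstt3, Uts2r and Nipal3 came first for Thbs2 (r = 0.915, 0.864 and 0.840), and Rhou, Ptgr2 and Top2b for Sparcl1 (r = 0.90, 0.886 and 0.873). The list was Heg1, Sulf2 and Ank for Tnc (r = 0.919, 0.899 and 0.896) and Tns1, Ccdc71 and Mterf4 for Tnxb (r = 0.929, 0.906 and 0.905). Ranked by Spearman's rho instead, 1 of the 3 names was shared for Sparc, Sparcl1, Thbs1, Postn and Tnc and 2 for Thbs2 and Tnxb, and Itgav, an integrin chain that binds periostin, then came first for Postn.

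Other secreted regulators of the same kind were described from a list of 19 matricellular genes, of which 10 were tested. In DKO against ECKO 1 of the 10 was called, and in DKO against CTRL 0 were (6 at an unadjusted p under 0.05). The median log2 difference of the 10 in DKO was 0.72 relative to CTRL and 0.71 relative to ECKO, beside 0.02 over all genes tested in both. Ccn2, a growth factor binding protein induced by TGF-beta, rose in DKO against ECKO, from 1008 ± 189 to 3036 ± 560.0 CPM (log2 1.59 ± 0.36, adjusted p = 0.0399), a call that was lost without CTRL 1 or any ECKO or DKO library (adjusted p up to 0.283). Smoc1, a relative of Sparc, stood at 44.3 ± 7.71 CPM in CTRL and 111 ± 11.2 in DKO (1.25 ± 0.38, adjusted p = 0.157), and Tgfbi, a relative of Postn, at 237 ± 22.2 and 377 ± 28.8 CPM (0.68 ± 0.27, 0.288). Without SMKO 2, Ccn2 and Smoc1 were called in DKO against CTRL, ECKO and SMKO, where 1.82%, 1.97% and 1.68% of all genes were called.

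Of 19 receptors that bind these proteins, 14 were tested. Cd36, a thrombospondin receptor and fatty acid carrier, fell in DKO, from 63.0 ± 12 CPM in CTRL and 51.6 ± 11.8 in ECKO to 10.9 ± 8.02 (log2 -2.30 ± 0.43, adjusted p = 0.00971 against CTRL, and -1.99 ± 0.44, 0.0399 against ECKO). Its DKO libraries had 1, 10 and 2 counts, and none of them stood above the filter's cutoff. The gene was thus brought into the test by the groups with high values, and its calls are conditional on this selection. With all 12 libraries Cd36 was the only receptor called in either comparison. Endothelial markers (10 of 10 with counts) summed to 781 to 1053 CPM in DKO, overlapping CTRL (997 to 1189) and below every ECKO library (1198 to 1536), and their part in the Cd36 values was not tested. The call against CTRL was lost without CTRL 2, DKO 1 or DKO 3 (adjusted p up to 0.0994), and that against ECKO without CTRL 1 or any ECKO or DKO library (up to 0.231). Itga5, the fibronectin-binding integrin chain, stood at 30.9 ± 6.19 CPM in CTRL and 75.0 ± 2.53 in DKO (1.37 ± 0.34, adjusted p = 0.0626), and Itgb5, an integrin chain that pairs with Itgav, differed by 0.80 ± 0.27 (0.201). The median of the 14 in DKO against CTRL was 0.14, with 9 higher and 5 lower. Without SMKO 2, 2 of 15 receptors tested were called in DKO against CTRL, Cd36 lower and Itga5 higher. In DKO against ECKO 2 were called there as well, Cd36 lower and Itgav higher. In that fit 1.82% and 1.97% of all genes were called in these comparisons.

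Among 19 collagens and matrix partners, 17 were tested and 1 rose in DKO against CTRL. This was Col4a1, a basement membrane collagen chain, at 170 ± 19.8 CPM in CTRL and 445 ± 50.5 in DKO (log2 1.39 ± 0.29, adjusted p = 0.0188). Its call was lost without any CTRL or DKO library (adjusted p up to 0.162). It was also called for the smooth muscle deletion averaged over endothelial status (0.90 ± 0.20, adjusted p = 0.0484), a call kept in 2 of the 12 fits with a library left out. The fibrillar chain Col1a1, a ligand of Sparc, stood at 1588 ± 563 CPM in CTRL and 3886 ± 958 in DKO (1.29 ± 0.39, adjusted p = 0.132), and Col6a1 differed by 1.19 ± 0.31 (0.0685). The median of the 17 was 0.83 in DKO against CTRL, where 15 were higher and 2 lower, and 0.43 in SMKO against CTRL, which became -0.05 without SMKO 2. Without that library 7 of 18 collagens and partners tested were called higher in DKO against CTRL, Col4a2 and Col1a1 among them, where 1.82% of all genes were called.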

How the data were processed

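A single table of 41709 genes was deposited. Per the file headers, its columns are counts and TPM made by the authors for each of the 12 libraries. The authors' fold change and p-value for DKO against each other group stand in it too, per the file headers. Per the submitters' processing notes the build was GRCm39; which aligner, counter, strand setting and test the authors used is not given in the sources used here. Per the labels' protocols, the Nextera XT kit was used, which does not mark strand. Exons of Thbs1, Tnc and Tnxb overlap an antisense gene in an older annotation; the overlapping gene had 0 counts for Thbs1 and Tnc and was not analysed here for Tnxb.

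Deposited counts were tested with edgeR 4.0.16 (R 4.3.3) in 1 model of 12 libraries, with TMM scaling, filterByExpr (10 counts, 3 libraries), robust spread and 8 residual degrees of freedom. DESeq2 1.42.0 and limma-voom 3.58.1 were alternatives. SE is the absolute log2 difference over the square root of F. Data for DKO against CTRL were simulated from 6296 genes, and those that passed the filter were tested. Of these, 27.4% of 95 genes with a log2 change of 1 and 86.2% of 94 with a change of 2 were called. Of 5787 unchanged genes 0.104% were called. The simulated spread followed the trend over genes, without an outlying library such as SMKO 2. The shares may therefore be too high for genes whose spread exceeds the trend. Poisson and binomial intervals cover counting error only, since PCR copies are not independent molecules, whereas intervals of log2 differences come from the fitted spread between libraries. Likeness used log2 CPM with a prior count of 2.

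The 7 genes, the lists, the markers and the tests were chosen with earlier results of these data known. Named were the 7 genes, Efemp2, the 3 most alike genes of each by Pearson r (without predicted models), and per list the called genes and the 3 with the smallest p over the 4 groups. Collagen ratios, the choice to print values without SMKO 2, and the fit without the 2 shallowest libraries were chosen after the values were seen.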

Additional observations from a re-analysis of the deposited data

How the results depend on the processing

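The count of matricellular genes called was 0 in all 10 tests of the edgeR model with the filter and no block. Without the filter on low counts it was 2 in DKO against either CTRL or ECKO, 1 in DKO against SMKO, 3 over the 4 groups, 1 in the interaction and 1 for the smooth muscle average, where 158, 173, 32, 218, 28 and 149 of 16588 genes were called. With the 6 libraries of the 2 groups alone DKO gave 1 against CTRL and 2 against ECKO, among 99 of 5763 and 172 of 5331 genes. The 2 against ECKO were Sparc and Tnxb, and Tnxb was brought past the filter there by ECKO libraries, where it is high. Without the 2 shallowest libraries it was 1 for the smooth muscle average, among 38 of 7787 genes. With each library left out in turn it ran from 0 to 1 in DKO against CTRL, 0 to 2 against ECKO, 0 to 3 against SMKO, 0 to 2 over the 4 groups and in the interaction, and 0 to 1 for each average. Calls over all genes in those fits ran from 4 to 139, 0 to 150, 0 to 128, 3 to 150 and 0 to 62, then 5 to 93 for the smooth muscle and 0 to 32 for the endothelial average. The causes of these moves were not tested.

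The labels do not say that replicate numbers mark a shared animal, litter or day. Over 18 same-number pairs the correlation of deviations ran from -0.143 to 0.177 (median 0.0776, against -0.0369 for other pairs) and 5 passed 0.1, so the numbers were not taken to pair libraries. As a hint from the data, 8 of 12 libraries were closest on average to their own number. With the replicate block 1 gene, Tnc, was called in DKO against CTRL (2.92 ± 0.67, adjusted p = 0.0342, among 50 of 6296 genes), and no other call was made among the 7.

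Of 848 alternative log2 differences or p-values of single genes, 806 kept sign and side of the threshold, 24 passed it and 18 changed sign. With a library left out, the reversed ones ran from -1.69 to 0.21 (Sparcl1, DKO against CTRL), -0.16 to 0.40 (Thbs1, DKO against CTRL), -0.029 to 2.26 (Tnc, DKO against ECKO), -0.17 to 0.83 (Postn, DKO against SMKO), -0.25 to 0.63 (Postn, SMKO against CTRL), -0.32 to 0.030 (Thbs2, SMKO against CTRL), -0.15 to 0.058 (Thbs2, ECKO against CTRL), -0.47 to 1.34 (Sparc, SMKO against ECKO) and -0.37 to 1.45 (Sparc, interaction). Without the 2 shallowest libraries Postn was -0.060 in DKO against SMKO and the Sparc interaction was -0.60. Counts fell to 0 for Tnc, 1 for Tnxb and 3 for Sparcl1 in single libraries, which limits the precision there.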

Other observations

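Among 17 genes of TGF-beta signalling, 16 were tested and 1 rose in DKO against CTRL. Ltbp2, a fibrillin-binding relative of the latent TGF-beta binding proteins, went from 286 ± 6.43 to 743 ± 172 CPM (SD, n = 3; log2 1.38 ± 0.31, edgeR, adjusted p = 0.0312), a call that was lost without any CTRL, ECKO or DKO library (adjusted p up to 0.210). The median of the 16 was 0.01, with 8 higher and 8 lower. Tgfbr3, a TGF-beta co-receptor, differed by -0.74 ± 0.27 (adjusted p = 0.234) and Smad6, an inhibitory SMAD, by -0.74 ± 0.31 (0.331).

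Of 13 transcription factors linked to mechanical signals, 9 were tested and 0 were called in DKO against CTRL by edgeR (2 at an unadjusted p under 0.05). Egr1, an immediate early factor, differed by -1.65 ± 0.57 (adjusted p = 0.278), Tead2 by -1.07 ± 0.51 (0.406) and Tead1 by 0.04 ± 0.29 (0.988). In SMKO against CTRL Egr1 differed by -2.05 ± 0.64 (0.874).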
